A study of Mus musculus with 15 samples.

Results

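The Hnrnp and Srsf gene families, which encode general RNA-binding regulators of splicing, were followed across the gastrocnemius transcriptomes of 15 aged mice. Genes were included if they were protein-coding, if their symbol began with Hnrnp or with Srsf and a digit, and if their mean count was at least 10 over the 15 mice. This gave 30 genes, 20 Hnrnp and 10 Srsf, of 55450 genes in the count table, and all 30 were among the 16920 genes with enough counts to be tested. Srsf12 also fitted the name but had a mean count of 0.333 and a highest count of 3, and was left out. The pseudogenes Hnrnpa1l2-ps2 and Hnrnpa1l2-ps, with mean counts of 4.8 and 2.6, were not protein-coding. Mean counts were lowest for Srsf9 and highest for Hnrnpa2b1 (13540).

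All mice were female, of the C57BL/6JN strain and older than 17 months, with no other treatment given in the labels. Low frailty marked mice (labelled robust) had at most 1 positive frailty marker and High frailty marked mice (labelled frail) had at least 2, out of treadmill distance, grip strength, Rotarod latency, body weight and a clinical frailty index. The groups were assigned after the muscle had been collected. Control mice (4 Low, 3 High) stayed in their cages, and Run mice (4 Low, 4 High) ran downhill on a treadmill at a decline of 22 degrees and 13 m/min on consecutive days and were sampled 24 h after the last bout. Each library was the polyadenylated RNA of 1 mouse from the gastrocnemius, a mostly fast-twitch calf muscle, and held 19395125 to 30699216 counts. Whole muscle was sequenced, so a lower level in fewer cells of a type and less RNA per cell cannot be told apart.

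Heterogeneous nuclear ribonucleoproteins (hnRNPs) coat nascent transcripts, and many of them repress the use of nearby splice sites. Serine/arginine-rich (SR) proteins bind exonic enhancers, recruit the spliceosome and often oppose hnRNPs at the same exon. SR proteins are phosphorylated by the SRPK kinases in the cytoplasm and by the CLK kinases in the nucleus, which sets where they are and how active they are. Many genes of both families limit their own expression by splicing in an exon or retaining an intron that sends the transcript to nonsense-mediated decay. In muscle, splicing regulators of this kind help to set the isoforms of sarcomere and calcium-handling proteins.

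The annotation of the families bears on this form of control. At least 1 annotated transcript marked for nonsense-mediated decay was present in 19 of the 30 genes (63.3%), in 9 of the 10 Srsf genes and in 10 of the 20 Hnrnp genes. Among the 13772 protein-coding genes tested the share was 27.6%. A transcript with a retained intron was annotated for 22 of the 30 (73.3%) and for 57.2% of the protein-coding genes tested. The 30 genes also had more annotated transcripts each, with a median of 7.5 against 5.0 among those protein-coding genes. The shares were not adjusted for this. The counts are sums over each gene, so productive and decay-prone transcripts of these genes were not separated here.

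Levels can be compared between genes per length, as RPKM, the CPM (counts scaled to a common library size with TMM) divided by the kilobases of annotated exon. Hnrnpa2b1, an hnRNP A/B protein of mRNA packaging and export, was the most abundant at 81.7 ± 8.2 RPKM (SD, n = 15 mice). Hnrnpab, a relative of Hnrnpd and Hnrnpdl, followed at 60.8 ± 6.9 RPKM. Srsf5 at 40.1 ± 11.2 and Srsf2 at 38.1 ± 5.2 RPKM were the most abundant SR genes, and their spreads overlapped. Of the SR genes Srsf10 was the lowest, at 4.10 ± 0.86 RPKM, and of the hnRNP genes Hnrnpr, at 1.57 ± 0.11 RPKM. Hnrnpr has 22199 bases of annotated exon, the longest of the 30, and RPKM values depend on which of these bases a muscle transcript uses. The sum over the 20 Hnrnp genes ran from 2064 to 2885 CPM in a mouse and that over the 10 Srsf genes from 610.2 to 999.7 CPM.

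**Figure D1:**
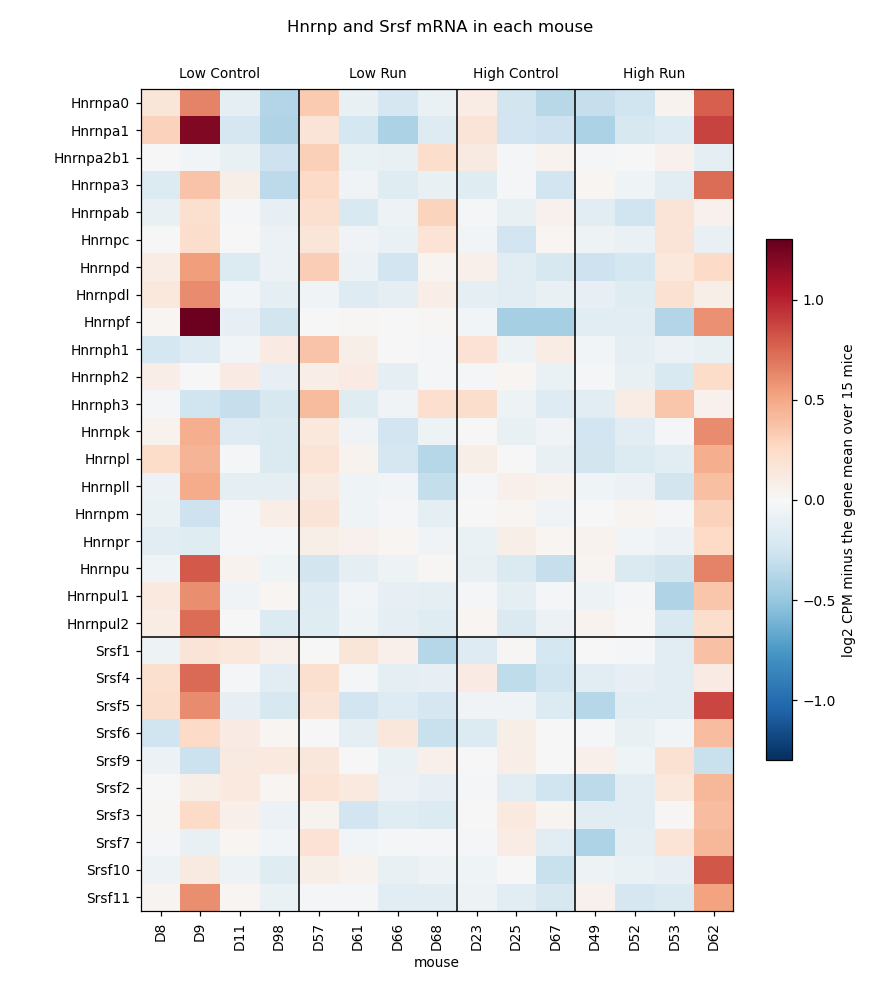
Heat map of 30 genes (rows, Hnrnp above and Srsf below the line) in 15 mice (columns, by group); colour is log2 CPM minus the gene's mean over the mice, red for higher and blue for lower. The columns of Low Control mouse D9 and High Run mouse D62 hold most of the dark red, with median deviations of 0.31 and 0.39, and the other columns stay pale.

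The genes of both families varied little among most mice. Over 13 of the 15 mice the highest CPM of a gene was 1.16 (Hnrnpr) to 1.64 times (Hnrnpa0) its lowest, with a median of 1.4. The remaining mice, D9 of the Low Control and D62 of the High Run group, stood above this range for most of the 30 genes, as the heat map by mouse shows. With them the same ratio ran from 1.34 (Hnrnpr) to 3.27 (Hnrnpf), with a median of 1.74. D9 and D62 were picked out because of these values, so what follows describes them and tests nothing. Both also stood apart over all genes, at 71.4 and 46.7 on the first principal component of the deposited transformed values, where the other mice lay between -17.7 and 13.8.

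The median deviation from the gene means was 0.31 (log2) in D9 and 0.39 in D62. Low Run mouse D57 came next at 0.16, and the other 12 mice lay between -0.11 and 0.00. The same median over all genes tested was between -0.03 and 0.01 in every mouse. The families differed in these mice: the Hnrnp median was 0.45 in D9 and 0.28 in D62, and the Srsf median was 0.21 in D9 and 0.42 in D62. D9 was the highest of the 15 mice for 11 of the 30 genes and D62 for 14, and together they held the first and second place for 16. That joint count was not taken over all genes. Over all genes tested D9 was highest for 22.7% and D62 for 10.8%, and over the 6576 genes within the mean CPM range of the families for 35.4% and 9.95%. The share in D9 was thus near that of other genes of like abundance, and the share in D62 was larger, a difference that was not tested.

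**Figure D2:**
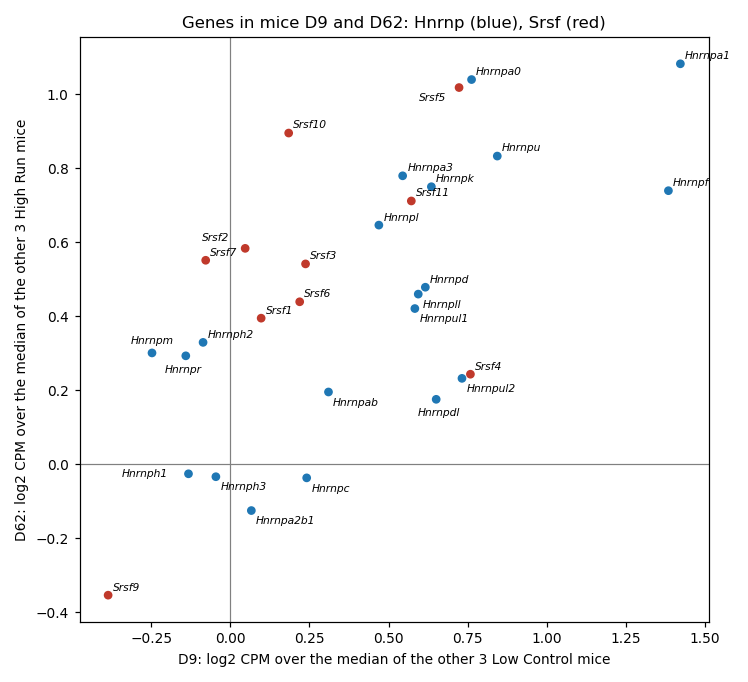
Scatter plot of the 30 genes: the x axis is log2 CPM of D9 over the median of the other Low Control mice, the y axis log2 CPM of D62 over the median of the other High Run mice, with Hnrnp genes in blue and Srsf genes in red. Hnrnpa1, Hnrnpf, Hnrnpu, Hnrnpa0 and Srsf5 lie far up and to the right, and Srsf9 is the gene farthest down and to the left.

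Against the median of the other 3 mice of its own group, D9 was higher for 23 genes and D62 for 25, with 21 higher in both and 3 lower in both. The median log2 difference was 0.39 in D9 and 0.45 in D62, where the medians over all genes tested were -0.01 and 0.00. The difference passed 0.5 for 14 genes in D9, 13 in D62 and 8 in both, and for 19.3% and 16.2% of all genes tested. Across the 30 genes the differences of D9 and D62 had a Pearson's r of 0.62 and a Spearman's rho of 0.53, a description over genes of 2 libraries. Neither ran with exon length, GC content or abundance, for which Spearman's rho lay between -0.12 and 0.20 over the 30 genes. The joint counts and the correlation between D9 and D62 were not computed over all genes tested. They are therefore not shown to be particular to the families.

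Hnrnpa1 (chromosome 15, 103240432 to 103246692, GRCm38) encodes a shuttling hnRNP that blocks exon inclusion. It stood at 58.2, 109 (D9), 40.6 and 35.9 CPM in Low Control mice and at 53.2, 40.4, 35.7 and 42.2 in Low Run mice. In High Control mice it stood at 53.1, 39.8 and 39.3 CPM, and in High Run mice at 35.6, 41.0, 42.2 and 86.7 (D62). The groups overlapped, and the values outside D9 and D62 spanned 35.6 to 58.2 CPM. Hnrnpa1 has processed pseudogenes elsewhere in the genome, and reads that matched such a copy equally well were not counted. Hnrnpa0, of the same subfamily, stood above its group by 1.04 on the log2 scale in D62 and by 0.76 in D9. Hnrnpa3 stood at 15.6, 22.7 (D9), 18.5 and 13.9 CPM in Low Control, 21, 17.1, 15.8 and 16.5 in Low Run, 15.8, 17.4 and 14.8 in High Control and 17.9, 17.0, 16 and 29.1 (D62) in High Run mice, with D62 and D9 highest. Hnrnpa2b1 did not share the pattern. It stood at 535, 523 (D9), 499 and 444 CPM in Low Control, 663, 506, 502 and 627 in Low Run, 581, 528 and 551 in High Control and 529, 535, 558 and 491 (D62) in High Run mice. D9 and D62 were inside the range of the other mice, and Low Run mouse D57 was highest. Hnrnpab, despite its name closer to the hnRNP D genes, was highest in Low Run mouse D68, at 205 CPM, with D9 second at 195.

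Hnrnpf (chromosome 6, 117900324 to 117925622) and its paralogs Hnrnph1, Hnrnph2 and Hnrnph3 encode proteins that bind runs of guanines. Hnrnpf stood at 18.7, 44.5 (D9), 17.0 and 15.6 CPM in Low Control and at 18.5, 18.6, 18.3 and 18.6 in Low Run mice. In High Control mice it was at 17.9, 13.6 and 13.6 CPM and in High Run mice at 16.7, 16.7, 14.1 and 27.8 (D62). It had the widest range of the 30 genes, all of it from D9 and D62, since the other mice lay between 13.6 and 18.7 CPM. The paralogs did not follow it. Hnrnph1 was lower in D9 (128 CPM) and D62 (135) than in 11 of the other mice, which ran from 123 to 187. Hnrnph3 stood at 30.4, 26.0 (D9), 25.1 and 26.8 CPM in Low Control, 41.0, 27.7, 29.9 and 35.9 in Low Run, 36.2, 29.6 and 27.6 in High Control and 28.2, 33.0, 39.8 and 32.3 (D62) in High Run mice, with D9 and D62 inside the range of the others. Hnrnph2 was highest in D62 and ranked 7 of the 15 in D9.

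Hnrnpu (chromosome 1, 178321108 to 178337797), a scaffold protein of chromatin and nascent RNA, stood at 216, 388 (D9), 231 and 216 CPM in Low Control mice and at 189, 207, 214 and 227 in Low Run mice. In High Control mice it was at 209.7, 197 and 182 CPM and in High Run mice at 229.8, 197, 189.7 and 351 (D62). The highest of the other mice, at 230.9 CPM, was far below both. Hnrnpul2, a relative with a role in DNA repair, stood at 124, 192 (D9), 115 and 103 CPM in Low Control, 104, 111, 107 and 104 in Low Run, 118, 102 and 109.7 in High Control and 119, 116, 101 and 136 (D62) in High Run mice. Hnrnpul1, the other relative, stood at 113, 158 (D9), 101 and 105 CPM in Low Control, 92.5, 101, 96.5 and 95.2 in Low Run, 102, 95.8 and 102 in High Control and 99.2, 102, 78.9 and 133 (D62) in High Run mice. Both were highest in D9 and second in D62.

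Among the remaining hnRNP genes some followed D9 and D62 and some did not. Hnrnpk, a poly(C)-binding protein, and Hnrnpl, a CA-repeat-binding repressor, were highest in D62 and second in D9. Hnrnpd (also AUF1, an mRNA decay factor) and its relative Hnrnpdl were highest in D9, with D62 ranked 3 and 5 of the 15. Hnrnpll, the relative of Hnrnpl, had D9 first and D62 second. Hnrnpc was highest in D9, only 0.24 above its group on the log2 scale, and D62 ranked 14 of the 15. Hnrnpm and Hnrnpr were highest in D62 and lowest of all 15 mice in D9. Hnrnpr, the steadiest gene, stood at 31.7, 31.1 (D9), 34.3 and 34.4 CPM in Low Control, 36.6, 36.1, 35.4 and 33.5 in Low Run, 32.7, 36.6 and 35.4 in High Control and 35.8, 34, 32.8 and 41.6 (D62) in High Run mice. Hnrnpm shares its strand and part of its locus with March2, which had a mean count of 2282, so its counts are less certain.

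Srsf5 (chromosome 12, 80945504 to 80950507) belongs with Srsf1, Srsf4, Srsf6 and Srsf9 to the SR proteins with a pair of RNA recognition motifs. It stood at 182, 238 (D9), 144 and 134 CPM in Low Control and at 174, 131, 139 and 133 in Low Run mice. In High Control mice it was at 151, 150.3 and 138 CPM and in High Run mice at 120.0, 140.1, 142 and 284 (D62). The other mice thus spanned 120.0 to 182 CPM, below both. Srsf1, among the first SR proteins described, stood at 91.3, 108 (D9), 106 and 101 CPM in Low Control, 95.5, 107, 100.4 and 74.0 in Low Run, 85.6, 97 and 81.6 in High Control and 95.3, 95.1, 87.0 and 125 (D62) in High Run mice. D62 was highest there, and D9 was level with the other Low Control mice. Srsf4 stood at 56.2, 81.4 (D9), 48.1 and 44.1 CPM in Low Control, 56.2, 48.3, 45.0 and 45.2 in Low Run, 52.5, 38.7 and 40.9 in High Control and 44.4, 45.3, 44.5 and 52.7 (D62) in High Run mice. Only D9 stood clear of all other mice for Srsf4, while D62 was above the rest of its own group but not of all groups. Srsf6 had D62 first and D9 second. Srsf9 went the other way: its 12.8 CPM in D9 and 12.7 in D62 were the 2 lowest of the 15 mice, where the others had 14.5 to 17.8.

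The SR genes with a single recognition motif followed D62 more than D9. Srsf2, which also acts in transcription elongation, was at 151 CPM in D62 and 118 in D9, against 88.0 to 127 elsewhere. Srsf3, linked to mRNA export, stood at 43.9, 51.8 (D9), 45.4 and 41.3 CPM in Low Control, 44.8, 36.5, 39.1 and 38.3 in Low Run, 43.3, 47.6 and 44.5 in High Control and 39.5, 39.4, 44.0 and 57.4 (D62) in High Run mice, with D62 and D9 highest. Srsf7 was highest in D62 and ranked 12 of the 15 in D9. Among the atypical SR genes, Srsf10, whose protein represses splicing when dephosphorylated, stood at 27.0, 30.7 (D9), 27.0 and 25.3 CPM in Low Control, 29.8, 29.1, 26.5 and 26.9 in Low Run, 27.2, 28.4 and 23.2 in High Control and 26.9, 26.6, 26.3 and 49.5 (D62) in High Run mice. Only D62 stood apart for Srsf10. Srsf11 stood at 74.3, 110.2 (D9), 74.1 and 68.3 CPM in Low Control, 71.6, 71.2, 65.4 and 65.6 in Low Run, 69.6, 65.9 and 63.0 in High Control and 75.5, 62.4, 63.7 and 104 (D62) in High Run mice. D9 and D62 both stood apart for Srsf11. Hnrnpa1, Hnrnpa0, Srsf2 and Srsf9 were added to the genes named by rule after their values were seen.

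**Figure D3:**
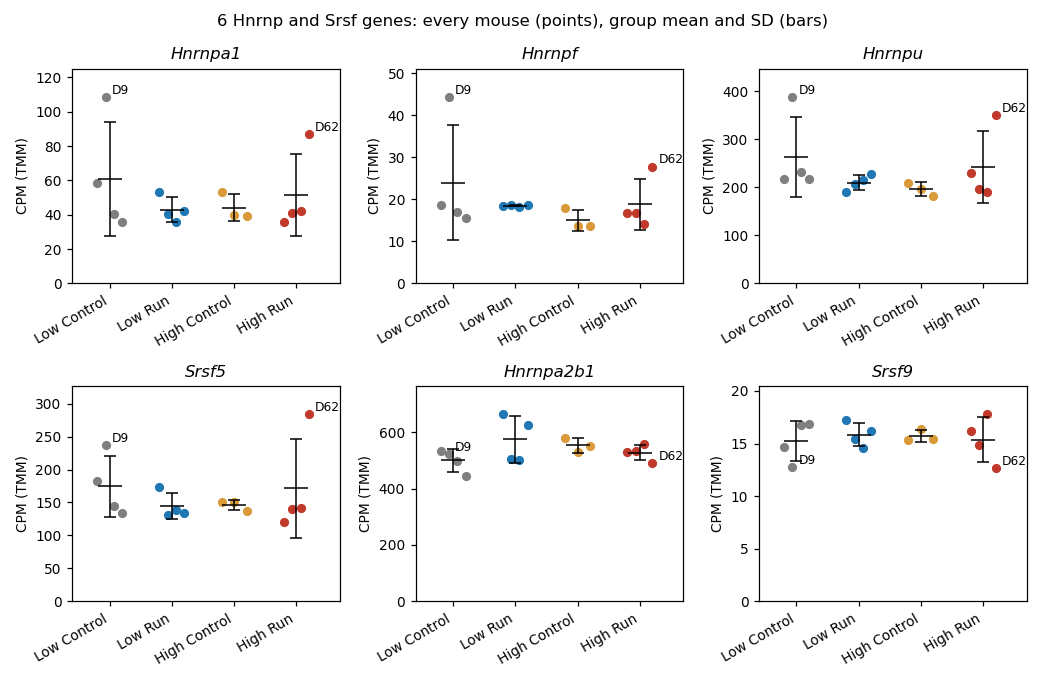
CPM of 6 genes by group, from 0 on each y axis; points are mice, bars are the group mean and SD, and D9 and D62 are labelled. Hnrnpa1, Hnrnpf, Hnrnpu and Srsf5 have D9 and D62 above all other mice, while Hnrnpa2b1 and Srsf9 do not.

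The 250 bases before the start sites of the families were read from the RefSeq promoter table (GRCm38.p6), which held 40 promoters of 28 of the 30 genes. The windows of 4 genes are shown, each with 1 start site in the table: 3 of genes that stood high in both D9 and D62, and that of Srsf9, which was lowest in both. They lie at chr1:178337816-178338065 on the minus strand (Hnrnpu), chr15:103240147-103240396 on the plus strand (Hnrnpa1), chr12:80945249-80945498 on the plus strand (Srsf5) and chr5:115326927-115327176 on the plus strand (Srsf9). Capitals mark GC boxes (GGGCGG or its complement), CCAAT boxes (CCAAT or its complement) and the core of the cAMP response element (TGACG or its complement).
Hnrnpu: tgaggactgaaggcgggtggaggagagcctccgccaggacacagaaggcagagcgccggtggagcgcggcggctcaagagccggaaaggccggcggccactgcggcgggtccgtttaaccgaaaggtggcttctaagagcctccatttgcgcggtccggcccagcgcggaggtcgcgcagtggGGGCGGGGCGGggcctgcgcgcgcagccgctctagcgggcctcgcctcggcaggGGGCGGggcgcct
Hnrnpa1: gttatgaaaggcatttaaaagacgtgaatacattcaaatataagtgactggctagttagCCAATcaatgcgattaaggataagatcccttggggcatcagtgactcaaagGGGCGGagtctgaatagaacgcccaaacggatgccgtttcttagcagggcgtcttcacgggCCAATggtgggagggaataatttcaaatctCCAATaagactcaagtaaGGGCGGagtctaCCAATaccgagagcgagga
Srsf5: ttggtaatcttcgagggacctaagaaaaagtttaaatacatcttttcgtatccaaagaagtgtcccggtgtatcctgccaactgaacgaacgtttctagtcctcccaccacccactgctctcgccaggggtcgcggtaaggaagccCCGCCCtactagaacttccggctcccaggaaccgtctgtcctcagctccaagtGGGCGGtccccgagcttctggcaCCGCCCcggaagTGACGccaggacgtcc
Srsf9: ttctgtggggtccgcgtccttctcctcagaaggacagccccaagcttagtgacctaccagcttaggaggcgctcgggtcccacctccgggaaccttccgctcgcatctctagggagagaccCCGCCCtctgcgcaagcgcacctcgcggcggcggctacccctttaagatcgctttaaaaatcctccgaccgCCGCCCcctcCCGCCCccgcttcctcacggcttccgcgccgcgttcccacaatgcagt

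The Hnrnpu window held 3 GC boxes, 2 of them overlapping, and no CCAAT box. The Hnrnpa1 window held 2 GC boxes and 4 CCAAT boxes and had the lowest GC content of the 28 genes, 46.0%, where their median was 65.6%. The Srsf5 window held 3 GC boxes and 1 core of the cAMP response element, and overlapped an exon of Gm20337, a divergent noncoding RNA on the other strand. The Srsf9 window held 3 GC boxes. Over the 28 genes a GC box was found on either strand in 82.1%, a CCAAT box in 57.1%, TGACG in 57.1%, the ETS core CCGGAAG in 21.4%, the E-box CACGTG in 10.7% and TATAAA in 10.7%. Over the 10757 tested protein-coding genes in the table the shares were 62.4%, 40.1%, 29.1%, 14.6%, 9.64% and 8.40%, and over all 27025 genes in it 35.4%, 37.5%, 19.8%, 7.83%, 6.86% and 14.3%. A gene counted if any of its promoters held the string. The shares were not adjusted for the number of promoters per gene or for GC content, whose median was 65.6% in the families and 59.6% in the tested protein-coding genes. A match is a string of letters in this window and does not show that a factor binds there. Whether these strings bear on the levels in D9 and D62 was not tested.

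The effect of running was tested within each frailty group, and the Frailty × Run interaction tested whether it differed between them. No Hnrnp or Srsf gene passed a false discovery rate (FDR) of 0.1 in any of the 5 comparisons by edgeR's quasi-likelihood test, nor by DESeq2's Wald test or limma's voom with sample weights. The share of all genes called at this FDR by edgeR was 0% in each of the 5. At an unadjusted p under 0.05 edgeR called 0 of the 30 in each comparison, voom 0 in each, and DESeq2 1 for the interaction (Hnrnph1), 1 between the control groups (Hnrnpf) and 0 elsewhere. Of the 16895 of these genes to which it gave a p, DESeq2 called 14.4%, 5.55%, 8.79%, 6.61% and 2.65% at that level in the Low and High running comparisons, the interaction, and between the control and the run groups, and voom, of 16920, 8.19%, 13.6%, 10.4%, 9.33% and 5.08%. At the FDR of 0.1 DESeq2 called 0.0533% in the Low, 0.0888% in the High and 0% in each other comparison, and voom 0.266% in the High and 0% in each other comparison. Standard errors of single genes ran from 0.11 to 0.33 on the log2 scale in the Low comparison, so that changes of the size seen were within about 2 standard errors of 0.

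When Low Run mice were set against Low Control mice, 20 of the 30 genes had a negative and 10 a positive log2 fold change, with a median of -0.10 and a range of -0.51 to 0.31. The median over all genes tested was 0.02, and 51.9% of them were positive. An unadjusted p under 0.05 was found for 13.4% of all genes tested and for none of the 30. The hnRNP U genes had the most negative median of the subfamilies, -0.32 over 3 genes. Hnrnpul2 was at 134 ± 39.9 CPM (SD, n = 4) in Low Control and 107 ± 3.4 in Low Run mice, a log2 fold change of -0.32 ± 0.17 (SE, adjusted p = 0.39, edgeR). For Hnrnpul1 the log2 fold change was -0.31 ± 0.16 (adjusted p = 0.40, edgeR). Without D9 and D62 these became -0.11 and -0.15.

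On the positive side Hnrnph3, at 27.1 ± 2.3 CPM in Low Control and 33.6 ± 6.0 in Low Run mice, had a log2 fold change of 0.31 ± 0.15 (adjusted p = 0.37, edgeR), with a 95% interval of -0.02 to 0.65. The groups overlapped for Hnrnph3: 2 of the Low Run mice were above every Low Control mouse. Hnrnpa2b1 had a log2 fold change of 0.20 ± 0.12 (adjusted p = 0.44, edgeR), with 2 Low Run mice, D57 and D68, above all Low Control mice. Without D9 and D62 the values were 0.28 and 0.21. Without D57, the highest Low Run mouse for both genes, they were 0.20 and 0.12, and Hnrnpa2b1 had 0.15 without D68. None of the 30 genes had Low Run and Low Control mice without overlap in CPM, where 6.93% of all genes tested did. Without D9 the median over the 30 genes was -0.02, with 14 genes positive and 16 negative. It was -0.05 without D68, -0.07 without D66 and -0.15 without D57.

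When High Run mice were set against High Control mice the signs were mostly the other way: 24 genes had a positive and 6 a negative log2 fold change, with a median of 0.10 and a range of -0.16 to 0.32. The median over all genes tested was 0.05, 57.2% of them were positive, and 5.18% had an unadjusted p under 0.05. Srsf10 averaged 26.3 ± 2.8 CPM (SD, n = 3) among High Control and 32.4 ± 11.5 CPM (SD, n = 4) among High Run mice, a log2 fold change of 0.30 ± 0.20 (SE, adjusted p = 0.96, edgeR). Hnrnpa3 had 0.32 ± 0.21, Hnrnpu 0.30 ± 0.23 and Srsf1 0.19 ± 0.15, with adjusted p = 0.96 for each by edgeR. In all 4 genes D62 was the highest High Run mouse, and the other 3 High Run mice overlapped the High Control mice. Without D62 the median over the 30 genes was -0.02, with 14 genes positive and 16 negative, and without D9 and D62 Srsf10 had 0.01, Hnrnpa3 0.08, Hnrnpu 0.06 and Srsf1 0.06. No gene of the families had High Run and High Control mice without overlap, where 7.07% of all genes tested did.

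**Figure D4:**
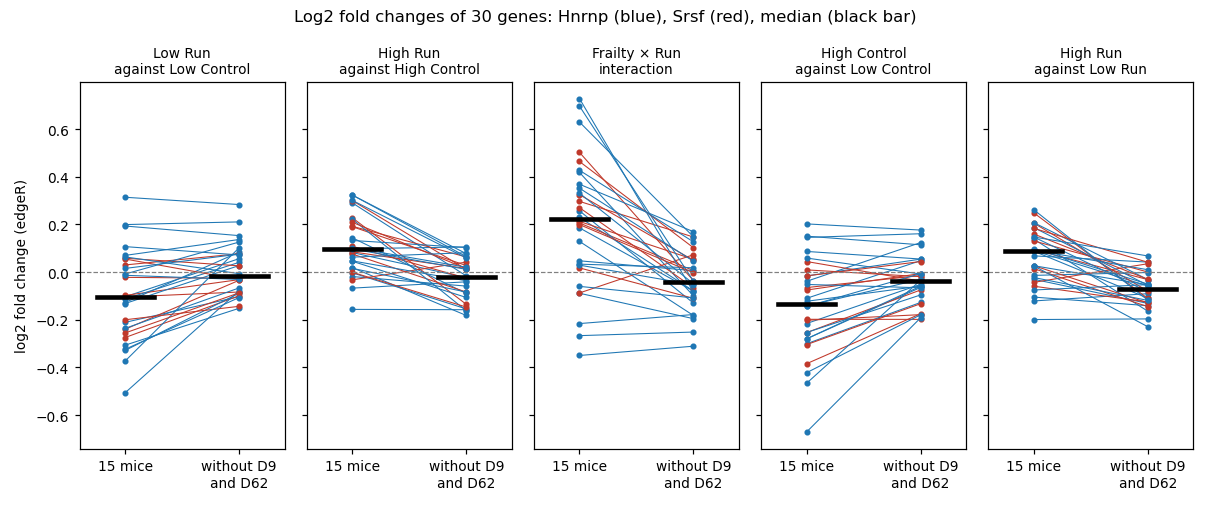
Log2 fold changes of the 30 genes from edgeR in the 5 comparisons, with all 15 mice (left of each panel) and without D9 and D62 (right); lines join each gene, Hnrnp in blue and Srsf in red, and the black bar is the median. The medians for running move from -0.10 to -0.02 in Low and from 0.10 to -0.02 in High mice, and that for the interaction from 0.22 to -0.04.

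For the Frailty × Run interaction, which is the High difference minus the Low difference, 24 genes were positive and 6 negative, with a median of 0.22 and a range of -0.35 to 0.73. The median over all genes tested was 0.03, and 53.1% of them were positive. An unadjusted p under 0.05 was found for 7.93% of all genes tested and for none of the 30. Hnrnpu had an interaction of 0.63 ± 0.31 (SE, adjusted p = 0.60, edgeR), with a 95% interval of -0.05 to 1.31. Srsf11 had 0.46 ± 0.26 and Hnrnpul2 0.43 ± 0.25 (adjusted p = 0.60 and 0.61, edgeR). The largest estimate, 0.73 ± 0.48 for Hnrnpa1, was also the least precise. Hnrnph1 was the main gene of the opposite sign, at -0.35 ± 0.18 (adjusted p = 0.60, edgeR).

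The median interaction fell when D9 and D62 were left out. It was 0.13 without D9, 0.07 without D62 and -0.04 without both, with 12 genes then positive and 18 negative. D9 and D62 were picked for their high values of these genes, and their groups both enter the interaction with a positive sign. The fall therefore followed from that choice and tests nothing. Without both, Hnrnpu had an interaction of 0.15, Srsf11 0.10, Hnrnpul2 0.13 and Hnrnpa1 -0.08, whereas Hnrnph1 kept -0.31. With voom, which gives less weight to libraries that stand apart, the median was 0.02. The comparisons within the Low and High groups both enter the interaction, so these are not independent results.

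Hnrnph1 (chromosome 11, 50376990 to 50386528) had the most negative interaction with all mice and without D9 and D62. The interactions of Hnrnpa2b1 and Hnrnph3 also moved little, from -0.27 to -0.25 and from -0.22 to -0.18. Low Run mouse D57 was the highest of all mice for Hnrnph1, Hnrnpa2b1 and Hnrnph3. D57 stays in the fit without D9 and D62, which therefore does not show how far these interactions depend on D57. The Low fold changes enter the interaction. With D57 alone left out they fell from 0.20 to 0.12 for Hnrnpa2b1 and from 0.31 to 0.20 for Hnrnph3. Hnrnph1 stood at 123, 128 (D9), 141 and 155 CPM in Low Control and at 187, 152, 145 and 142 in Low Run mice. In High Control mice it was at 164, 138 and 154 CPM, and in High Run mice at 140.4, 133, 137 and 135 (D62). Every High Run mouse was below every Low Run mouse, with means of 136 ± 3.1 and 157 ± 20.9 CPM (SD, n = 4 each), a log2 fold change of -0.20 ± 0.12 (SE, adjusted p = 1.00, edgeR). The log2 fold change for running was -0.16 ± 0.13 in High and 0.19 ± 0.12 in Low mice, and neither passed the test.

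Between the control groups, 23 genes were lower and 7 higher in High Control than in Low Control mice by the sign of the log2 fold change, with a median of -0.13 against -0.02 over all genes tested. Among all genes tested 47.2% were higher by sign. An unadjusted p under 0.05 was found for 5.86% of all genes tested and for none of the 30. Hnrnpf had -0.67 ± 0.32 (SE, adjusted p = 0.70, edgeR), Hnrnpu -0.42 ± 0.23 and Srsf4 -0.38 ± 0.19, both also with adjusted p = 0.70 by edgeR. Without D9 and D62 they had -0.19, -0.18 and -0.17. In 2 of the 30 genes, Srsf2 and Hnrnpu, every High Control mouse was below every Low Control mouse, where 10.4% of all genes tested did not overlap in either direction. Srsf2 stood at 109.8, 101 and 93.0 CPM in High Control and at 112, 118, 122 and 114 in Low Control mice. The median over the 30 genes was -0.04 without D9. Low Control mice are the baseline here and in the Low comparison, so the values share them.

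Between the run groups, 21 genes were higher and 9 lower in High Run than in Low Run mice by sign, with a median of 0.09 against 0.01 over all genes tested. Among all genes tested 52.2% were higher by sign. Of all genes tested 2.51% had an unadjusted p under 0.05 and 1.5% had no overlap between the groups, and of the 30 genes 0 had the first and Hnrnph1 alone the second. Srsf3 was at 45.1 ± 8.5 CPM in High Run and 39.7 ± 3.6 in Low Run mice (SD, n = 4 each), a log2 fold change of 0.18 ± 0.14 (SE, adjusted p = 1.00, edgeR), and 0.04 without D9 and D62. The median over the 30 genes was -0.07 without D62, 0.02 without D68 and 0.14 without D53.

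Proteins that act with the families were read in the same fit, in lists of kinases, SR-related proteins, other splicing regulators, spliceosome subunits and decay factors. None of the genes in these lists passed an FDR of 0.1 in any comparison by edgeR, and none did among the 16920 tested. Of the 10 kinase, phosphatase and import genes, Dyrk1a alone had an unadjusted p under 0.05 in the Low comparison (13.4% of all genes tested), with a log2 fold change of -0.54 ± 0.20 (SE, adjusted p = 0.36, edgeR), and Clk3 alone for the interaction (7.93% of all genes), at 0.39 ± 0.18 (adjusted p = 0.60, edgeR). Clk4, a nuclear SR kinase, stood at 73.3, 163 (D9), 62.8 and 55.1 CPM in Low Control, 51.3, 53.2, 60.0 and 59.3 in Low Run, 57.4, 51.8 and 63.9 in High Control and 53.5, 49.8, 55.7 and 116 (D62) in High Run mice. Clk1, its relative, stood at 151 CPM in D9 and 183 in D62, against 49 to 101 in the others. Srpk3, the muscle-enriched cytoplasmic SR kinase, was at 20.0 CPM in D9, 53.6 in D62 and 47.3 to 85.5 in the others. The median deviation of the 10 genes was 0.43 in D9 but 0.02 in D62, within the -0.13 to 0.06 of the other mice, so Clk1 and Clk4 do not stand for the list in D62. Clk1, Clk4, Srpk3 and, further on, Rbm20 are named after their values were seen.

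**Figure D5:**
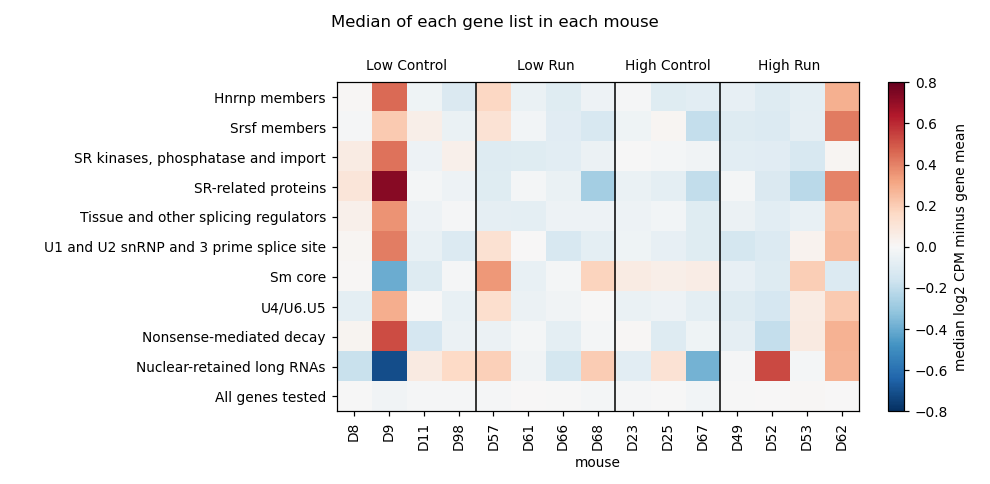
Heat map of the median deviation (log2 CPM minus the gene mean) of each gene list (rows) in each mouse (columns, by group), with all genes tested in the last row. D9 is high for 8 of the 10 lists above that row and low for the Sm core (-0.40) and the nuclear-retained RNAs (-0.71), and D62 is high for 8 of them. Of those 8, the nuclear-retained RNAs (0.27 in D62) lie within the -0.38 to 0.53 of the mice other than D9 and D62.

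SR-related proteins stood out most in D9. The median deviation of these 15 genes, which include Son, Srrm2 and the Luc7-like splice-site proteins, was 0.73 in D9 and 0.40 in D62, and -0.27 to 0.10 in the other mice. In the Low comparison 7 of the 15 had a negative log2 fold change with an unadjusted p under 0.05 and 0 a positive one, where 13.4% of all genes tested passed that level in either direction. The median of the list was -0.32, and -0.19 without D9 and D62, of which only D9 is in these groups. For Srrm2, a large SR-rich protein of nuclear speckles, Low Control mice stood at 371, 486 (D9), 361 and 370.0 CPM and Low Run mice at 175, 281, 283 and 162, without overlap. The log2 fold change was -0.82 ± 0.28 (SE, adjusted p = 0.36, edgeR), and -0.71 without D9 and D62. In High mice Srrm2 stood at 277, 250.4 and 169 CPM in Control and at 354, 381, 145 and 393 (D62) in Run, and the interaction was 1.27 ± 0.41 (adjusted p = 0.60, edgeR). Luc7l, by contrast, moved from -0.73 to -0.19 in the Low comparison without D9 and D62, and Scaf11 from -0.70 to -0.25.

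The other lists gave fewer such genes, to be read against the same 13.4% of all genes in the Low and 5.18% in the High comparison. Of 29 tissue and other splicing regulators, 1 was positive and 5 negative at an unadjusted p under 0.05 in the Low comparison and Rbm4 alone, positive, in the High one. Rbm20, which controls titin splicing, stood at 184 CPM in D9, 128 in D62 and 45.5 to 88.2 elsewhere. Of 19 subunits of the U1 and U2 particles and of 3' splice site recognition, 2 were positive and 2 negative in the Low comparison at that level and 0 in the High one, with Sf3b1, which holds the branch point, at -0.55 ± 0.22. Of 19 subunits of the tri-snRNP, 3 were positive and 1 negative in the Low comparison.

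The 8 Sm core genes went the other way from the families, with 8 of 8 positive in the Low comparison, a median log2 fold change of 0.28 and 1 (Snrpf, 0.65 ± 0.24) at an unadjusted p under 0.05. Their median deviation was -0.40 in D9 and -0.11 in D62, and the Low median was 0.23 without those mice. All 8 were also positive in High Control against Low Control mice, which shares the Low Control mice. The median there was 0.19, and 0.12 without D9 and D62. Of 15 decay factors, 1 was positive and 3 negative in the Low comparison at that level, among them Smg1, the kinase that starts decay, at -0.60 ± 0.26 and, without D9 and D62, -0.21. The nuclear-retained RNAs Malat1 and Neat1 were not high in D9: Neat1 stood there at 513 CPM, below the 744 to 1842 of the 13 other mice, and Malat1 at 982, within their 863 to 2200.

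Cell type markers were read beside D9 and D62. Myofibre markers (7 genes) were abundant throughout, with a summed level of 127930 CPM in D9, 117480 in D62 and 128120 to 181440 in the other mice. All 40 markers were measured, and the B cell marker Cd79a was at 0 in D9. Fibroblast markers summed to 674 CPM in D9 and 541 in D62, against 654 to 1175 in the others, but the 4 genes of that list did not move alike. The collagen genes Col1a1 and Col3a1 were lowest in these mice, at 13.3 and 12.5 CPM in D9 and 24.3 and 19.6 in D62, where the others had at least 61.7 and 40.7. Dcn stood at 623 CPM in D9 and 481 in D62, and Pdgfra at 24.8 and 16.6, against 465 to 917 and 21.3 to 36.7 in the others. Macrophage markers summed to 45.1 and 48.8 CPM, within the 35.4 to 119 of the others, and satellite cell markers to 3.06 and 2.77, within 2.72 to 5.20. Slow myofibre markers summed to 1243 CPM in D9 and to 3110 in D62, the highest of the 15 mice. The 10 most abundant genes took 20.3% and 20.5% of the counts in D9 and D62 and 21.8% to 26.5% in the others. In the comparisons, none of the 11 marker lists held a gene past an FDR of 0.1 by edgeR. At an unadjusted p under 0.05, the 3 lymphocyte markers were higher in Low Run than in Low Control mice, the 3 erythroid markers, 2 of 5 macrophage and 2 of 4 slow myofibre markers were higher in High Run than in High Control mice, and Myh4 was lower in both Run groups. Schwann cell markers summed to 277 CPM in D62 and 58.9 to 172 in the 13 mice without D9 and D62. The part of these differences in the levels of the Hnrnp and Srsf genes was not tested.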

How the data were processed

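PolyA RNA of the gastrocnemius of 15 mice was sequenced, 1 library per mouse. The authors aligned reads to mm10 with STAR 2.7.9a and counted uniquely aligned, properly paired fragments per Ensembl gene on 1 strand with featureCounts, and deposited raw counts for non-mitochondrial genes. They also deposited log2-like values from DESeq2's variance-stabilising transformation (1.32.0 in the submitters' processing notes), used here for principal components and as an alternative. The counts were tested with edgeR 4.0.16 (R 4.3.3; TMM, filterByExpr, quasi-likelihood F-test, 1 mean per group over all 15 mice), with Benjamini-Hochberg adjustment over 16920 genes and an FDR of 0.1. Alternatives were DESeq2 1.42.0, limma 3.58.1 (voom with sample weights), other scalings and filters, and each mouse left out. Omitting D9 and D62 together was chosen after seeing the data. The fitting scripts were tested on simulated data. Of 55450 IDs, 55190 matched GENCODE (GRCm38). Values in CPM use TMM library sizes, and ± is the SD for levels and the SE for log2 fold changes. The genes and lists were chosen with earlier results of these data known. By rule, every mouse's value is given for the 4 genes with the smallest p in each running comparison and the interaction, 3 between control groups and 2 between run groups, and for the most and least abundant gene of each family. The separate mice were the replicates.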

Additional observations from a re-analysis of the deposited data

Results flagged for a closer look

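The highest and lowest mouse of each group of 4 were set against Dixon's 95% critical value, in 48 tests over the genes named by rule and the median over the 30 genes. Since the limit is a 95% one, chance alone flags about 1 group in 20. High Run mouse D62 stood apart for the median deviation of the 30 genes (0.3862, log2) and for Hnrnpa3 (29.13 CPM), Srsf4 (52.66 CPM), Srsf5 (283.7 CPM) and Srsf10 (49.54 CPM). Low Control mouse D9 stood apart for Hnrnpf (44.46 CPM), Hnrnpu (388.4 CPM) and Srsf11 (110.2 CPM).

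Over all 30 genes, 4 passed the limit in the Low Control group, all of them high in D9, 1 in the Low Run group and 9 in the High Run group, 8 of them high in D62. Over all genes tested the shares that passed were 9.63%, 5.86% and 8.00%. The High Control group, with 3 mice, was not examined.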

How the results depend on the processing

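No gene of the families passed an FDR of 0.1 in any of the 5 comparisons under any setting run, and the smallest adjusted p over the settings was 0.246 (Hnrnpul2, Low comparison, without D98, edgeR). The count at an unadjusted p under 0.05, 0 in each comparison, became 1 in the Low comparison with at least 10 counts required in every mouse or with length and GC offsets, 1 for the interaction with DESeq2 or with no count filter, and 1 between control groups with DESeq2, with no count filter or with length and GC offsets. With each mouse left out it ran from 0 to 2 in the Low comparison, 0 to 3 for the interaction and 0 to 4 between control groups. DESeq2 apart, the share of all genes tested is not set beside these counts, so they describe the settings and not the families. That share also moved with the mice: without D9 it was 5.03% in the Low comparison, 4.66% for the interaction and 2.63% between control groups, each with 0 of the 30 genes. The median interaction, 0.22, was 0.0226 with voom and -0.0432 without D9 and D62. Median log2 fold changes with each mouse left out ran from -0.15 to -0.02 (Low), -0.02 to 0.14 (High), 0.07 to 0.32 (interaction), -0.20 to -0.04 (control groups) and -0.07 to 0.14 (run groups). Those in High mice and between run groups turned negative without D62, and with voom they were -0.003 and -0.01. The cause was not tested. No paired analysis was possible because the samples carry mouse numbers that no groups share.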
